A study of Oryza sativa with 3 samples.

Results

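The rice miRNA families numbered MIR806 to MIR821, without MIR820, were described in the small RNA libraries of 3 rice lines. The rule picks precursors by family number, from the precursor names in the deposited alignments, and uses no read count. It was set with earlier results of these data known, however. MIR820 was left out of the rule and is among the long families used for comparison below. The rule covers 15 family numbers. Of these, 8 had reads, MIR810, MIR812, MIR814, MIR815, MIR816, MIR817, MIR818 and MIR821, and no reads were listed for MIR806, MIR807, MIR808, MIR809, MIR811, MIR813 and MIR819 at known precursors in the files used here. The 8 families held 41 precursors of the 516 known precursors with reads. A total of 38 of the 41 had reads in all 3 libraries and 3 had reads in 2 libraries.

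The lines were NP, which is non-transgenic rice of the Nipponbare background, Ov199, which overexpresses OsNAR2.1 from the Ubi promoter, and RNAi, in which OsNAR2.1 is silenced. OsNAR2.1 is the partner protein of high affinity nitrate transporters, and small RNA libraries do not measure its mRNA, so the labels could not be checked against it. A label of the RNAi sample holds the tag Ni as well, which no source explains. Leaves, flowers and stems of field-grown plants at the blooming stage were pooled for RNA, each line gave 1 library, and Ov199 is a single transgenic line. There were no replicates, so each test below compares libraries and not lines. Sets of 3 values follow the order NP, Ov199, RNAi.

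Most plant miRNAs are cut from short hairpin precursors by the enzyme DCL1, usually as RNAs of 21 nt that guide the cleavage or the silencing of mRNAs. A group of rice families instead arises from miniature inverted-repeat transposable elements, short DNA repeats whose ends are complementary to each other, so that a transcript folds into a long hairpin. MIR812 is traced to the Stowaway type of these repeats. In rice, hairpins of this kind can be cut by DCL3, and the products of 24 nt, many of which begin with A, are loaded into AGO4, which directs DNA methylation. Whether the precursors below lie in repeats was not tested, since no genome was used.

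The sequences that carry the description are the most abundant ones of each family and of the precursors that differed between libraries. They are written 5′ to 3′ as DNA, with the seed (bases 2 to 8) in capitals. A substitution gives the base of the precursor, the position counted from the 5′ end of the read, and the base of the read. The first set holds the leading sequence of each family with at least 10 reads in a library, and further leading sequences of MIR812, MIR814 and MIR818 that show how the reads of a family differ among themselves.
MIR810, at MIR810a: aCATGTGGtgagcttacgatg
MIR812, at MIR812c: aAAGTTGGacacggaaacccaggg
MIR812, at MIR812i: aAAGTTGGacacggaaactcaggg
MIR812, at MIR812j: gTTGGACAcggaaactcatggctg
MIR814, at MIR814b: aAAACCGGacgagacacttcatag
MIR814, at MIR814b: aCTATAAAgtgtctcgtctggtcc
MIR815, at MIR815b: aTTGAGGAgattgggaagatacgc
MIR816, at MIR816: tTCGTAGTactaggatgtgtc
MIR817, at MIR817: gGATGATGgtcatctgtgacgggc
MIR818, at MIR818e: tTTTTGCTtgcactgtttgacc
MIR818, at MIR818e: tTTTTACTtgcactgtttgacc
The MIR810 sequence is 21 nt long, matched its precursor exactly, and had 118 reads from NP, 170 from Ov199 and 137 from RNAi. No other sequence of the set came near it. The first MIR812 sequence, of 24 nt, was read 17, 29 and 23 times in the same order and carried the substitution C3A, so the leading sequence of the largest family did not match its precursor exactly. The MIR812i sequence, read 12, 19 and 17 times, shared its seed and carried A14G. The MIR812j sequence, read 23, 19 and 21 times, was an exact match. The MIR816 sequence carried T10C, and the second MIR818 sequence, which carried G6A, was read 3, 10 and 7 times beside 7, 10 and 15 reads of the exact one. The first MIR814 sequence, from position 3 of its precursor, was read 1, 5 and 6 times. The second, from position 58 of the same precursor, was read 2, 5 and 2 times. The MIR815 sequence, with T24C, was read 3, 2 and 2 times. The MIR817 sequence, which carried C15T, is the longest of several that tied at 3 reads.

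MIR812 was the largest of the families, with 22 precursors. It had 737, 1076 and 748 reads in NP, Ov199 and RNAi, or 14937, 11428 and 11925 normalized counts, which are reads per 1000000 aligned reads. Among all known families with reads it ranked 10 of 223 in NP, 11 of 231 in Ov199 and 11 of 229 in RNAi. MIR818 (6 precursors) had 252, 330 and 296 reads, or 5107, 3505 and 4719 normalized counts. MIR810, with only 2 precursors, had 225, 369 and 267 reads, or 4560.1, 3919 and 4257 normalized counts. MIR810 and MIR818 thus lay close together, and their 95% counting intervals overlapped in every library.

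The other 5 families were at lower levels. MIR814 (3 precursors) had 41, 74 and 70 reads in NP, Ov199 and RNAi. MIR815 (3 precursors) had 59, 61 and 60 reads. MIR816 (1 precursor) had 23, 27 and 23 reads. These were followed by MIR817 (1 precursor), the only family that was highest by normalized count in Ov199. It had 8, 32 and 12 reads. MIR821 (3 precursors) had 2, 4 and 4 reads, close to the limit of 3 reads that a count of 0 allows, so no order of the lines could be given for it.

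**Figure D1:**
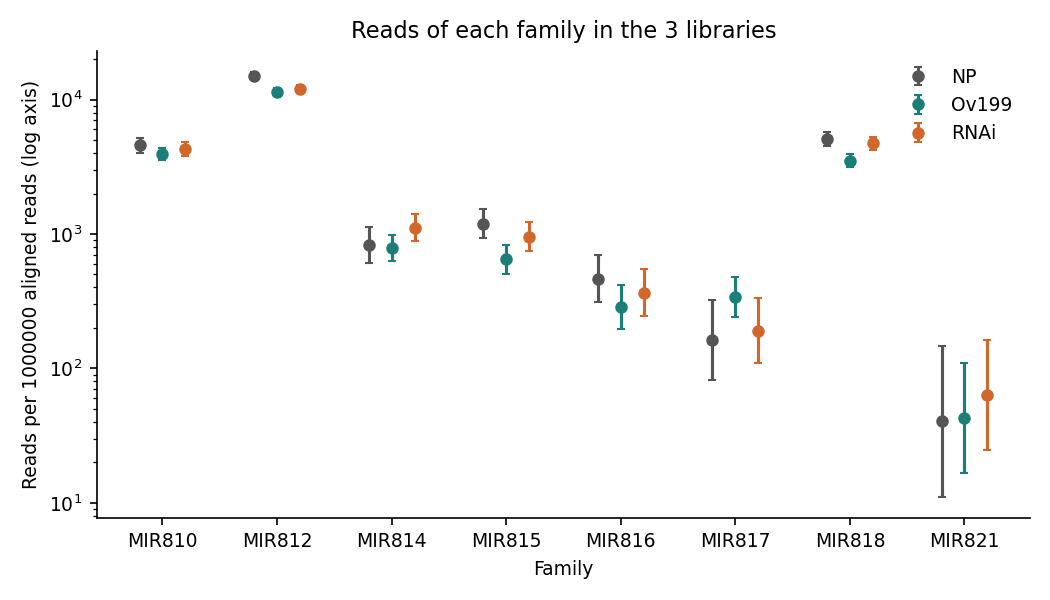
Normalized counts (reads per 1000000 aligned reads, log axis) of the 8 families in NP, Ov199 and RNAi, with 1 point per library and 95% Wilson intervals that cover counting error only. MIR812 is the highest in every library, MIR810 and MIR818 overlap, and the intervals of MIR821 are the widest.

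All reads aligned to a known or predicted precursor numbered 49341, 94154 and 62724 in NP, Ov199 and RNAi, and 1 read equalled 20.3, 10.6 and 15.9 normalized counts, with Ov199 as the deepest library. The set took 1347, 1970 and 1479 of these reads. In NP its share was 2.73% (95% Wilson interval 2.59 to 2.88%). For Ov199 it was 2.09% (2.00 to 2.19%), and for RNAi 2.36% (2.24 to 2.48%). The interval of NP lay above both others, and that of RNAi lay above that of Ov199. Reads carried no molecular identifiers, so intervals and tests cover counting error only, and differences between plants and in library preparation are not in them. In RNA pooled from 3 organs, a lower level in a library can be less RNA per cell or a smaller part of the cells or organs that hold it, and these cannot be told apart.

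Each family was compared between libraries with Fisher's exact test, two-sided, adjusted by the Benjamini-Hochberg method over all known families. Of the 8 families, 3 were lower in Ov199 than in NP at an adjusted p under 0.05, beside 18.9% of the 259 known families tested. MIR812 was at a fold of 0.765 (adjusted p = 3.9e-07), MIR815 at 0.546 (adjusted p = 0.0086) and MIR818 at 0.687 (adjusted p = 9.8e-05), where folds are ratios of normalized count + 10. None of the 3 was lower by 2-fold. With adapter-trimmed reads as the total, a scaling that moved every log2 ratio of this comparison up by 0.24, none of the 8 families passed, and the folds were 0.906 for MIR812, 0.645 for MIR815 and 0.813 for MIR818. None of the 8 passed either after sequences read once were left out.

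In RNAi against NP, 1 of the 8 families passed, beside 9.8% of 255 families. MIR812 was lower, at a fold of 0.799 (adjusted p = 0.00024). This difference had an adjusted p of 0.16 with exact alignments only and of 0.47 without sequences read once. In RNAi against Ov199, 1 of 8 families passed, beside 18.2% of 264 families. MIR818 was higher in RNAi, at a fold of 1.35 (adjusted p = 0.0019), and its fold was 1.19 (adjusted p = 0.15) under TMM scaling and 1.12 (adjusted p = 0.42) with adapter-trimmed reads.

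MIR817 was the single family past 2-fold in any comparison, at a fold of 2.03 in Ov199 against NP, and it did not pass the test (adjusted p = 0.23). The ratio of its normalized counts was 2.096 with a counting interval of 0.946 to 5.27. MIR810, MIR814, MIR816 and MIR821 also passed in no comparison, except that MIR810 passed in Ov199 against NP with reads of 20 to 24 nt only (fold 0.788, adjusted p = 0.043). For MIR810 the ratio of Ov199 to NP was 0.859 (interval 0.726 to 1.02) and that of RNAi to NP 0.933 (interval 0.779 to 1.12), so at this depth a difference of 2-fold lay outside the interval in either comparison.

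The members were also compared precursor by precursor. A read that aligned at several precursors was counted at each, and a precursor was called when it was past 2-fold with an adjusted p under 0.05. All 41 precursors were tested in each comparison, and the median folds were 0.774 (Ov199 against NP), 0.860 (RNAi against NP) and 1.14 (RNAi against Ov199), beside 1.03, 1.05 and 1.06 over all known precursors. Past 2-fold were 11 of 41 in Ov199 against NP (3 higher, 8 lower), beside 42.5% of 485 known precursors. In RNAi against NP there were 7 (2 higher, 5 lower), beside 43.5% of 478, and in RNAi against Ov199 5 (3 higher, 2 lower), beside 46% of 493. Of these, 4, 5 and 1 had fewer than 10 reads in both libraries. The members past 2-fold were thus 26.8%, 17.1% and 12.2% of the 41. MIR818a, with 0, 3 and 2 reads, MIR821b, with 0, 2 and 2, and MIR821c, with 1, 0 and 2, did not exceed 3 reads in any library, so their folds are not given.

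The called members were 6 of 41 in Ov199 against NP, beside a background of 10.1%. There was 1 in RNAi against NP, beside 8.37%, and 1 in RNAi against Ov199, beside 12.8%. All 6 in the first comparison were lower in Ov199. The number of calls was sensitive to the processing. With exact alignments only there were 2, and without sequences read once there was 1 in Ov199 against NP.

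MIR812r had 73, 61 and 55 reads in NP, Ov199 and RNAi, or 1480, 648 and 877 normalized counts. NP was the highest of the libraries although it was the shallowest. The fold of Ov199 against NP was 0.442 (adjusted p = 3.4e-05), and that of RNAi against NP was 0.595 (adjusted p = 0.024), which passed the test but not the fold. MIR812v had 19, 12 and 15 reads, with a fold of 0.348 in Ov199 against NP (adjusted p = 0.025). Its 46 reads all held a mismatch or a gap against the precursor.

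MIR815b had 33, 31 and 37 reads in NP, Ov199 and RNAi, and MIR815c had 36, 27 and 32. Read counts were alike while the depth of Ov199 was the greatest. Their folds in Ov199 against NP were 0.4998 (adjusted p = 0.032) and 0.401 (adjusted p = 0.0026). The call of MIR815b thus lay at the very edge of the 2-fold threshold. The 2 precursors share reads, since 80% of the reads at MIR815c and 39.6% of those at MIR815b aligned at several places, so they are not separate measurements. With multi-place reads divided over their places, the fold of MIR815b had an adjusted p of 0.21.

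MIR818b had 41, 31 and 22 reads in NP, Ov199 and RNAi, and was lower than NP in both other libraries. The folds were 0.403 in Ov199 (adjusted p = 0.00098) and 0.429 in RNAi (adjusted p = 0.0080). It was the only member called in RNAi against NP. MIR818c had 12, 3 and 11 reads. Its ratio of Ov199 to NP was 0.131 with a counting interval of 0.0237 to 0.485 (adjusted p = 0.0036), and its ratio of RNAi to Ov199 was 5.50 with an interval of 1.45 to 30.7 (adjusted p = 0.024). With adapter-trimmed reads the latter had an adjusted p of 0.054.

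The most abundant sequences at the called precursors show on how few copies of any single RNA these differences rest.
MIR812r: gTTAGACAcgaatttctacggctgc
MIR812v: aCTGCACTtaaaatgggacgg
MIR815b: aTTGAGGAgattgggaagatacgc
MIR815c: tGAAGAGAaggggattgaggagat
MIR818b: cTTATATTataggacggagggagc
MIR818c: aATATAAGggattttgaagggatg
The MIR812r sequence had 4 reads from NP, 0 from Ov199 and 3 from RNAi. The MIR812v sequence, which carried G1A, was read 8 times, all in Ov199, although the precursor as a whole was lower there. The MIR815c and MIR818b sequences, which carried G4A and G11A and also aligned to MIR815a and MIR818e, are each 1 of 2 that tied at 4 reads. The MIR815b sequence carried T24C, and the MIR818c sequence was read 5 times, all in RNAi.

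The other precursors with the most reads were within 2-fold in every comparison. MIR810a had 216, 348 and 260 reads in NP, Ov199 and RNAi, MIR812j had 119, 181 and 130, and MIR810b had 98, 184 and 120, and none of them passed in any comparison. MIR812c, at 4033, 2974 and 2854 normalized counts, was lower than NP in Ov199 (fold 0.738, adjusted p = 0.0097) and in RNAi (fold 0.708, adjusted p = 0.0080). MIR818e had 118, 174 and 171 reads, and it was higher in RNAi than in Ov199 at a fold of 1.47 (adjusted p = 0.0024).
MIR818d had 103, 132 and 102 reads and passed in Ov199 against NP at a fold of 0.673 (adjusted p = 0.022). MIR812q had 87, 134 and 69 reads and passed in RNAi against NP at a fold of 0.626 (adjusted p = 0.026), and with exact alignments only its fold was 1.16. MIR812m (64, 100 and 80 reads) and MIR812e (49, 94 and 59 reads) passed in no comparison. A further member, MIR812l, with 16, 28 and 36 reads, passed in RNAi against Ov199 at a fold of 1.90 (adjusted p = 0.049). By adjusted p alone, 8 of 41 members passed in Ov199 against NP, beside 19% of all known precursors, and 4 in RNAi against NP, beside 15.5%, all of them lower than NP. Between RNAi and Ov199, 3 passed, beside 20.9%, all higher in RNAi.

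**Figure D2:**
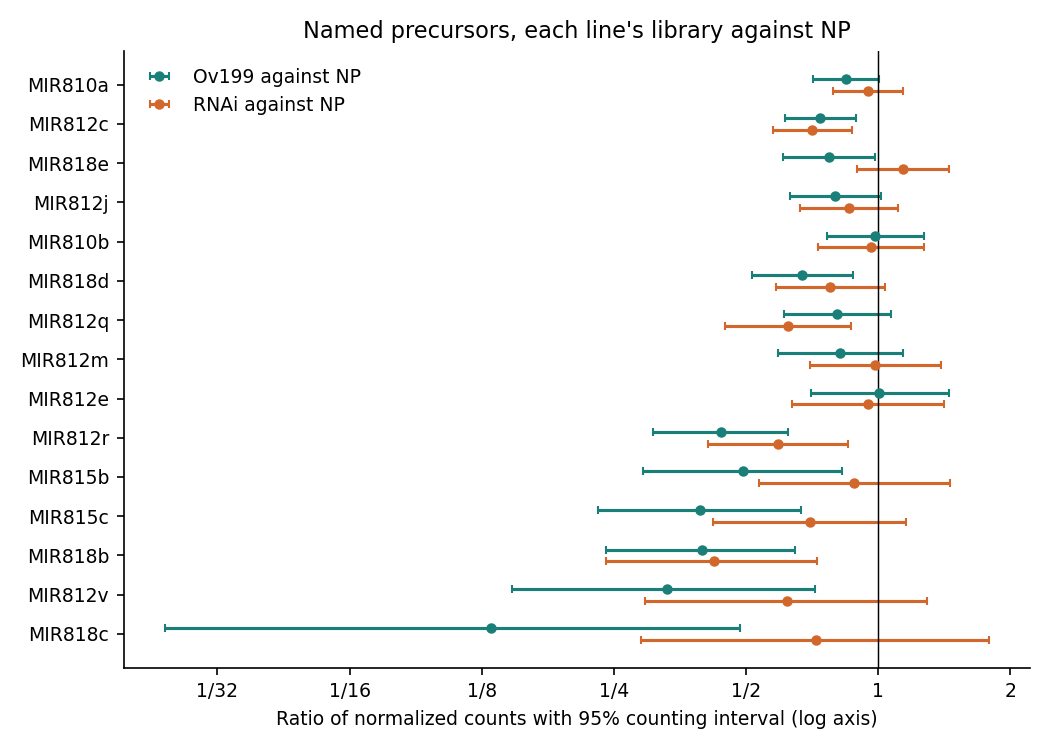
Ratio of normalized counts (log axis) of Ov199 and RNAi against NP for the 10 member precursors with the most reads and the called precursors, with 95% intervals that cover counting error only. The 6 precursors called in Ov199 against NP have intervals wholly below 1, and the interval of MIR818c, with 3 reads in Ov199, is the widest.

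Read length separated the families from most other known miRNAs. Reads of the set were 24 nt long in 40.8% of cases in NP, 35.2% in Ov199 and 37.5% in RNAi. Reads of the other known families were 24 nt long in 12.1%, 9.82% and 12.3% (Fisher's exact test, largest adjusted p of the 3 libraries 9.0e-129). Reads of 21 nt made up 19.4%, 21.2% and 19.1% of the set and 49.2%, 52.5% and 51.6% of the other known families. Yet the set was less uniform than 8 other rice families listed as sources of long miRNAs, MIR820, MIR1862, MIR1863, MIR1868, MIR1870, MIR1873, MIR1874 and MIR1876, in which 80.5%, 80.5% and 80.4% of reads were 24 nt long. A single sequence in each library held 61.0%, 62.3% and 63.8% of the reads of these 8 families, so their shares here and below rest largely on it. In 22 conserved families the share was 3.46%, 3.42% and 4.24%. Both lists were chosen by the annotated length of their miRNAs, 24 nt and 21 nt, so their order in length was set by that choice.

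Within the set the length class differed by family. In MIR812 as a whole the largest class was 24 nt, with 55.6%, 49.6% and 54.4% of its reads. Its precursors differed in this. Among those with at least 30 reads summed over the libraries, the share ran from 20% at MIR812l to 78.0% at MIR812p. MIR812c, with the most reads of them, was at 70.2%. Over the 30 precursors of the set with that many reads, the median was 33.6%, and 7 were over 50%. MIR810 was a family of 21 nt, at 70.2%, 66.9% and 66.7%, and only 5.33%, 3.52% and 2.62% of its reads were 24 nt long. MIR818 was mixed, with 33.3%, 24.5% and 23.6% at 24 nt, 20.2%, 18.2% and 19.9% at 22 nt and 13.9%, 16.1% and 19.9% at 21 nt. MIR814 had its largest class at 24 nt (39.0%, 45.9% and 45.7%) and almost no reads of 21 nt (1, 1 and 2 reads). MIR816 had 9, 16 and 9 of its 23, 27 and 23 reads at 21 nt, and MIR817 was short, with 6 of 8, 18 of 32 and 5 of 12 reads under 20 nt.

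**Figure D3:**
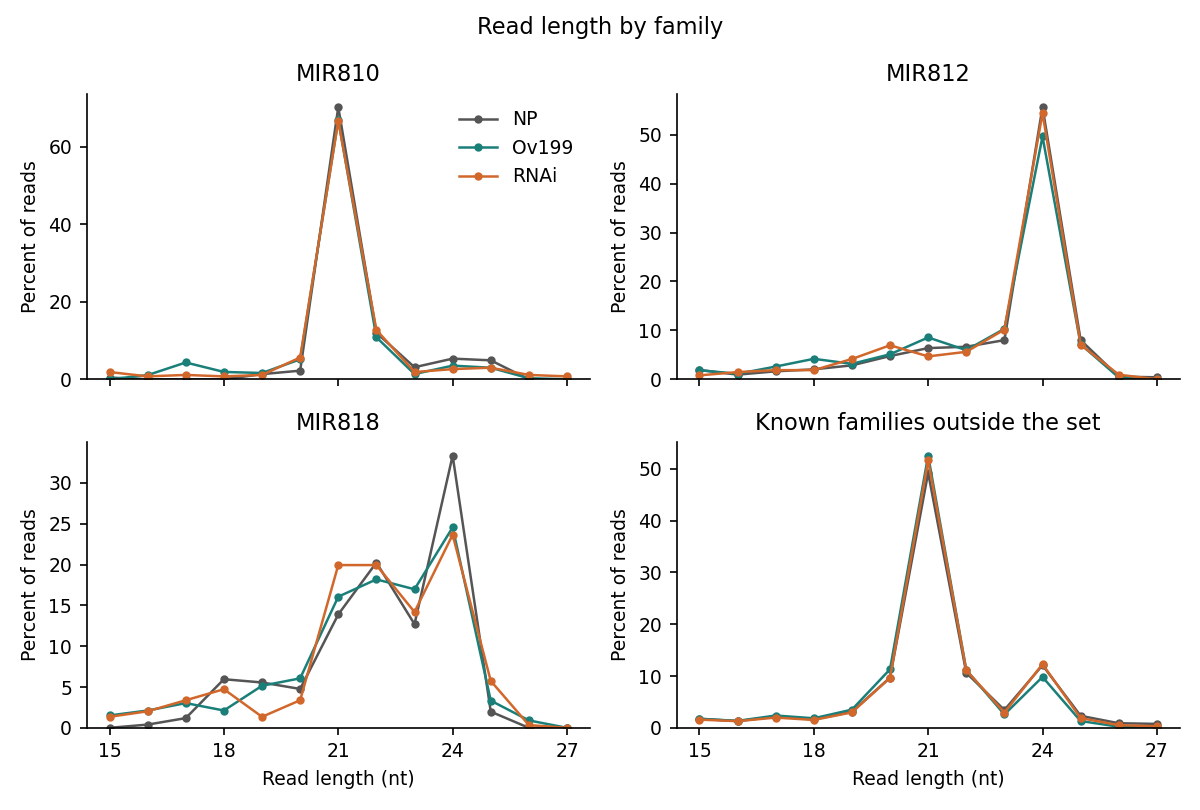
Percent of reads at each length from 15 to 27 nt in MIR810, MIR812, MIR818 and the known families outside the set, with 1 line per library. MIR812 peaks at 24 nt, MIR810 at 21 nt like the other known families, and MIR818 spreads from 21 to 24 nt.

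Few shares differed between libraries. Shares of 24 nt, 21 nt, mismatched and multi-place reads were compared between libraries for the set, MIR810, MIR812 and MIR818, and 2 of the 48 comparisons passed after adjustment over them. The 24 nt share of the set was 35.2% in Ov199 against 40.8% in NP (adjusted p = 0.034). The 21 nt share of MIR812 was 4.68% in RNAi against 8.55% in Ov199 (adjusted p = 0.034). For MIR812 alone the 24 nt share did not pass in Ov199 against NP (adjusted p = 0.13), and without MIR812 the share of the set was 22.8%, 17.9% and 20.1% in NP, Ov199 and RNAi.

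The first base of the 24 nt reads was A in 71.4% of the set in NP, 71.5% in Ov199 and 70.6% in RNAi. In the other known families it was A in 68.4%, 64.1% and 66.1%, a difference that passed in Ov199 (adjusted p = 0.00010) and RNAi (adjusted p = 0.035) and not in NP (adjusted p = 0.16). The direction rested on MIR812, since without it the set was at 53.2%, 46.9% and 55.1%, below the other known families. MIR812 was at 77.6%, 78.8% and 76.2%, and MIR818 at 50%, 32.1% and 47.1%. On fewer reads, MIR814 was above MIR812, with 14 of 16, 28 of 34 and 29 of 32, and MIR815 below it, with 10 of 19, 6 of 18 and 11 of 28. The other long families began with A more often, in 90.4%, 90.0% and 92.0% of their 24 nt reads.

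The set stood apart most clearly in how its reads matched the precursors. The alignments allowed at most 1 mismatch, inserted or deleted base. Of the reads of the set, 58.2%, 58.9% and 56.1% in NP, Ov199 and RNAi held such a difference, against 15.4%, 14.4% and 14.2% of reads of the other known families (largest adjusted p that could be computed 4.9e-267, with that of Ov199 too small to be held by the computer). The other long families were at 9.84%, 9.03% and 9.70%, below the set in every library. The conserved families were at 11.0%, 11.9% and 11.0%.

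MIR810 was the exception in the set, with 4.89%, 9.76% and 9.36% of its reads mismatched or gapped. MIR812 was at 67.7%, 68.3% and 66.3% and MIR818 at 70.6%, 72.7% and 62.2%. No read of MIR816 matched its precursor exactly in any library. Among the 30 precursors with at least 30 reads summed over the libraries, the share ranged from 8.50% at MIR810a to 100% at MIR812v and MIR816, with a median of 73.1%, and it was over 50% at 24 of them.

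Pooled over the set, the place and the kind of the difference also set these reads apart. The difference lay inside the read, at neither the first nor the last base, in 86.3%, 85.2% and 87.5% of the reads of the set with a substituted base, gapped reads left out. In the other known families it lay inside in 45.3%, 48.9% and 43.5%. The rest were at an end of the read. Of the same reads, changes between A and G or between C and T made up 67.9%, 61.0% and 69.6% in the set and 49.0%, 51.9% and 49.6% in the other known families (largest adjusted p 1.1e-08). MIR812 gave 471, 704 and 458 of the 753, 1114 and 783 substituted reads of the set. MIR810 was an exception on few reads. Its difference lay inside in 0 of 11, 10 of 35 and 3 of 22 reads, and 2, 10 and 10 of these reads held such changes. The comparisons of mismatches, of the first base and of repeated words were added after the data were seen, and no source for the differences was tested.

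Copies of a repeat can hold the same sequence, so the repeat status given for each read was summed. Reads with several places made up 30.8%, 32.5% and 32.05% of the set. The other known families had more, 49.2%, 51.0% and 46.8% (largest adjusted p 1.2e-29), and the conserved families, several of which have identical precursors, had 65.0%, 63.0% and 61.2%. The other long families had fewer than the set, 17.6%, 17.3% and 14.9% (largest adjusted p 1.8e-21). This order held only when reads were counted. Counted over distinct sequences instead, the shares were 33.8%, 33.1% and 34.7% in the set and 32.8%, 35.1% and 31.7% in the other known families, and the difference did not pass in any library. Of the 415, 640 and 474 multi-place reads of the set, 108, 191 and 150 had only 1 place listed in the files, so the places outside known and predicted precursors were not seen here.

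Reads at several member precursors made up 19.3%, 19.4% and 18.0% of the set, with up to 6 precursors for 1 sequence. Almost all of this sharing was within a family, since 0, 3 and 1 reads lay in more than 1 member family. Among precursors with at least 30 reads, the multi-place share ran from 5.77% at MIR817 to 95.8% at MIR812d. MIR810b depended on MIR810a. Of its 98, 184 and 120 reads, 9, 21 and 7 were placed there alone, while MIR810a had 127, 185 and 147 of its own.

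**Figure D4:**
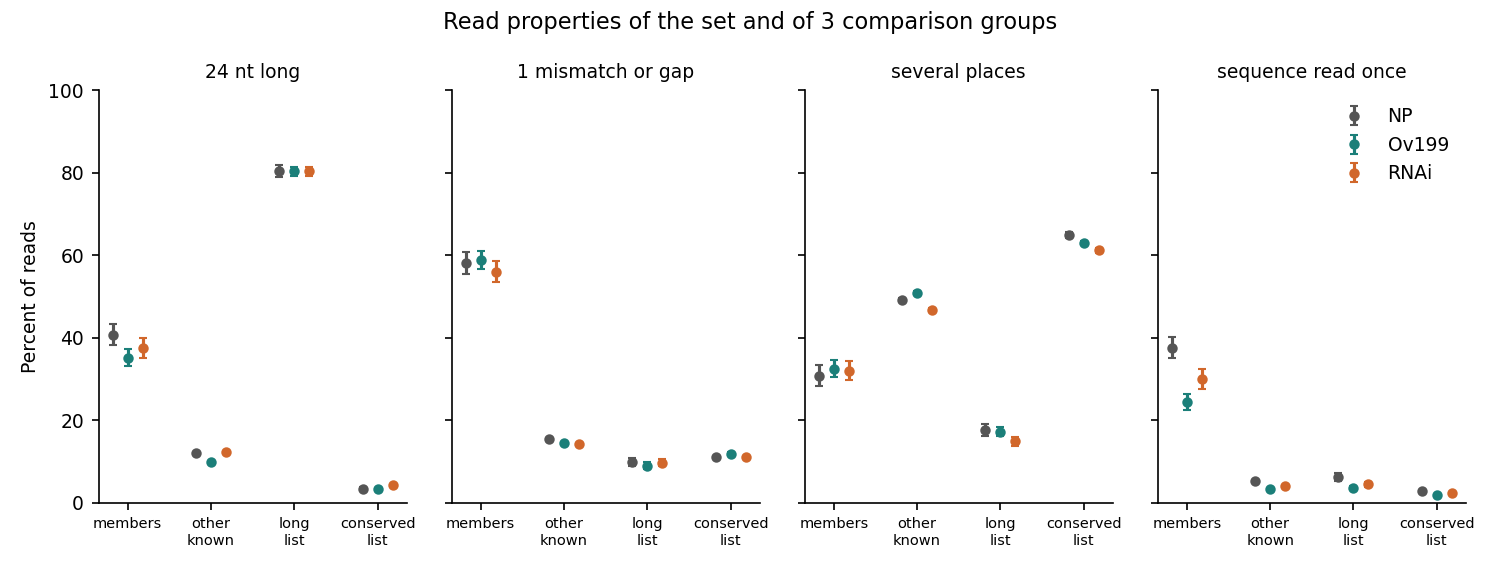
Percent of reads that are 24 nt long, that hold 1 mismatch or gap, that have several places, or whose sequence was read once in that library, for the set (members), all other known families, the other long families and the conserved families, with 1 point per library and 95% Wilson intervals. The set has the highest shares of mismatched reads, at 56.1 to 58.9%, and of sequences read once, at 24.5 to 37.6%.

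The reads of the set were spread over many sequences. The libraries held 737, 891 and 729 distinct sequences, or 1.83, 2.21 and 2.03 reads per sequence, beside 17.9, 24.9 and 21.9 in the conserved families. Sequences read once in a library held 37.6%, 24.5% and 30.0% of the reads of the set and 5.32%, 3.23% and 3.99% of the other known reads (largest adjusted p 7.5e-232). In both groups the share was lowest in Ov199, the deepest library, and highest in NP, the shallowest. Of 1945 sequences in any library, 1640 were found in 1 library only and 107 in all 3, and the 107 held 37.7%, 35.3% and 37.3% of the reads.

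The larger families differed in this. The leading MIR810 sequence held 52.4%, 46.1% and 51.3% of the reads of its family. The leading MIR812 sequence in each library held 3.12%, 2.70% and 3.07%. The diversity of MIR812 was narrower when sequences were grouped by seed. The seed AAGTTGG joined 49 sequences with 84, 138 and 99 reads, AACGTTG joined 81 with 97, 129 and 72, and ACGTTGG joined 60 with 45, 65 and 34. The last pair overlap, shifted by 1 base.

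A shared word runs through MIR812. GTTGGACAC or its reverse complement GTGTCCAAC was present in 33.1%, 37.3% and 33.6% of the MIR812 reads, and in 0 of 34266, 67343 and 48517 reads of the known families outside the set. The first orientation made up 244, 395 and 247 of these reads and the second 0, 6 and 4. The word was chosen from the leading MIR812 sequences printed above, so its presence in the family is a description. Reads that aligned both to the set and outside it were not counted among the outside reads, so the 0 holds without them. In MIR818 the word CTCCCTCCG or its reverse complement CGGAGGGAG, known from the ends of Stowaway elements, was in 25.8%, 24.8% and 22.6% of reads. It was in 0.128%, 0.110% and 0.0948% of the reads of other known families and in 0 reads of the conserved families. The other long families had it in 0.857%, 1.03% and 0.718% of reads, and MIR812 in 0.543%, 1.58% and 0.267%. A match is a run of letters and does not show where a read came from.

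The spread of reads along the hairpins differed by precursor. All alignments were to the forward strand of the precursor. Precursor lengths were not used, so the stretch covered by reads was divided at its midpoint into a first and a second part. Of the 30 precursors with at least 30 reads, 20 had over 80% of their reads in 1 part, which was the second for 19 and the first for MIR818e. MIR812 had 11.3%, 12.7% and 13.2% of its reads in the first part, MIR810 25.8%, 28.7% and 30.0%, and MIR818 55.9%, 58.6% and 62.8%. MIR814 had reads in both, at 53.7%, 45.9% and 42.9%, but its precursors differed. Summed over the libraries, the first part held 27.1% of reads at MIR814a, 56.5% at MIR814b and 96.6% at MIR814c. The 2 sequences of MIR814b printed above lay in different parts.

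At MIR810a a single start held 433 of 824 reads (52.5%) at position 206 of the precursor, 119, 174 and 140 in NP, Ov199 and RNAi. These were 7 distinct sequences, and 426 of the reads were exact. At MIR812c 2 neighbouring starts, 150 and 151, took 239 and 300 of 658 reads. Start 151 held 79 distinct sequences, with 230 reads mismatched or gapped and 70 exact. Starts shared by many reads thus held varied sequence at MIR812c and nearly uniform sequence at MIR810a. Whether the mismatched reads placed at MIR812c came from that precursor was not tested.

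MIR812j showed both kinds of start. Of 104 reads at position 218, 13 were exact, while of 67 reads at position 221, 64 were exact. MIR818e began most often at position 35, with 101 of 463 reads, and 88.8% of its reads lay in the first part. MIR812m was the 1 of the named MIR812 precursors with most reads in the first part, at 70.3%, 72% and 68.8%. MIR815a, picked out after its values were seen, differed most between libraries among the precursors with at least 30 reads, at 39.1% of 23 reads in NP, 78.6% of 28 in Ov199 and 39.1% of 23 in RNAi in the first part. Its reads covered only positions 39 to 93, and 83.8% of them aligned at several places. MIR815c, which shares reads with it, had 11.1%, 0% and 9.38% in the first part, so the difference cannot be given to MIR815a alone.

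**Figure D5:**
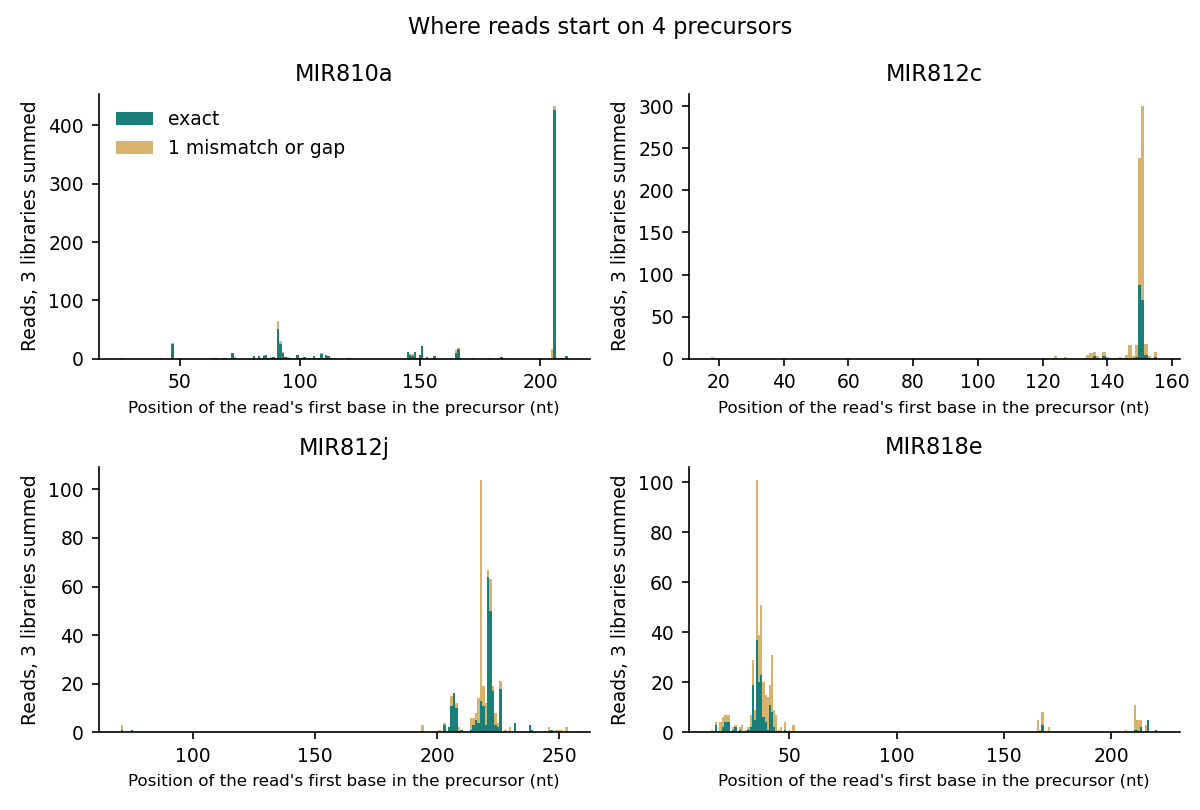
Reads of the 3 libraries summed, by the position on the precursor (nt) of the first base, for MIR810a, MIR812c, MIR812j and MIR818e, with exact reads and reads with 1 mismatch or gap stacked. MIR810a has 1 tall exact peak at position 206, MIR812c has 2 neighbouring peaks in which mismatched reads are the larger part, and MIR818e is read near its other end.

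Some reads of the set also aligned to known precursors outside it, 2.97%, 2.44% and 3.04% in NP, Ov199 and RNAi. MIR5788 shared 13, 24 and 24 reads with MIR814 and MIR816, MIR1862a shared 10, 9 and 13 with MIR812, MIR818 or both, and MIR1436 shared 11, 11 and 4 with the same families. MIR1862 is one of the other long families. These reads cannot be given to 1 family, and the 13, 24 and 24 reads shared with MIR5788 stand beside 41, 74 and 70 reads of MIR814 and 23, 27 and 23 of MIR816 in all.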

How the data were processed

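The authors pooled RNA of leaves, flowers and stems, sequenced 1 library per line, removed low-quality reads and adapters, and deposited raw read counts of each distinct sequence that aligned to known precursors or to precursors predicted with miRDeep2. Per the file headers, each line also gives read length, place and difference from the precursor. The aligner version, genome build and precursor release are not given in the sources used here.

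Reads were summed per family and per precursor, each sequence once per unit, and scaled to 1000000 aligned reads. A multi-place read had the repeat status of the files. Two-sided Fisher's exact tests ran over all known families or precursors and were adjusted by the Benjamini-Hochberg method, with a pseudocount of 10, a fold of 2 and a threshold of 0.05. Shares have 95% Wilson intervals. Reads also placed in the set were left out of the families it was compared with. Tests of shares against the other families treat reads as independent, so their p-values are too small. The members and lists were chosen with earlier results of these data known. The text names every family, the 10 precursors with the most reads and every called one. The comparison was also run on counts simulated from the pooled libraries with set changes. These counts held counting error only, so the run does not cover differences between plants or library preparations. Alternatives were pseudocounts of 1 and 100, other totals (adapter-trimmed reads, edgeR 4.0.16 TMM, DESeq2 1.42.0 size factors), a minimum of 10 reads, exact alignments, sequences read once left out, multi-place reads divided, and reads of 20 to 24 nt. Python 3.11.15, scipy 1.17.1, pandas 2.3.3 and R 4.3.3 were used.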

Additional observations from a re-analysis of the deposited data

Results flagged for a closer look

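Reads of the set also lay on predicted precursors, which the comparisons did not use. The predicted precursor chr2_32704 held 17 reads of the set in NP, 18 in Ov199 and 10 in RNAi, all of which were also counted in MIR812 or MIR818, and each count was above the 3 reads that a count of 0 allows. Other predicted precursors were above that limit in Ov199 alone, chr2_30672 with 7 reads and chr9_1451 with 5 reads, both shared with MIR814. In all, 1.56% of the reads of the set in NP, 1.78% in Ov199 and 1.28% in RNAi were also on predicted precursors.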

How the results depend on the processing

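No paired analysis was possible because each line had 1 library, and for the same reason no library could be left out. The count of called precursors in Ov199 against NP, 6 in the comparison as reported, was 3 with adapter-trimmed reads as the total, 1 without sequences read once and 2 with exact alignments only. In RNAi against NP, with 1 call, it was 0 without sequences read once, 0 with exact alignments only and 2 with reads of 20 to 24 nt. In RNAi against Ov199, with 1 call, it was 4 without sequences read once and 0 with adapter-trimmed reads, TMM, exact alignments, divided reads or reads of 20 to 24 nt. The count of families that passed in Ov199 against NP, 3 as reported, was 0 with adapter-trimmed reads and 0 without sequences read once. In RNAi against NP, with 1 family, it was 0 without sequences read once and 0 with exact alignments. In RNAi against Ov199, with 1 family, it was 2 without sequences read once and 0 with TMM and with reads of 20 to 24 nt. MIR818, the family that passed there as reported, did not pass with adapter-trimmed reads, so an equal count need not mean the same family. The cause was not tested. The fold of MIR812q in RNAi against NP turned from 0.626 to 1.16 with exact alignments (adjusted p = 0.95).

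The share of the set in all aligned reads was 1.45%, 1.08% and 1.28% (NP, Ov199 and RNAi) with exact alignments, 1.83%, 1.65% and 1.75% without sequences read once, 12.8%, 11.6% and 11.7% with each distinct sequence counted a single time, 2.97%, 2.29% and 2.58% with reads at a single place and 3.25%, 2.34% and 2.49% with reads of 20 to 24 nt. NP had the highest and Ov199 the lowest share in all of these, which were all shares of the library's own aligned reads or sequences. Other totals were not applied to the share. With adapter-trimmed reads as the total, log2 ratios of RNAi against Ov199 moved by -0.272, so the order of these libraries may depend on the total. The multi-place share with each distinct sequence counted a single time was 33.8% in NP and 34.7% in RNAi, above the other known families, and 33.1% in Ov199, below them, with no difference past the threshold. Under an alternative added after seeing the data, more than 1 listed place in place of the repeat status, it was 22.8%, 22.8% and 21.9%. The 24 nt share stayed above that of the other known families in all alternatives run. Of the folds of single families and named precursors under the alternatives, 616 kept their side of the threshold, 51 lost it, 10 gained it and 1 reversed. Only a fold that passed as reported could be counted as reversed. A fold that did not pass could change direction and still be counted as kept, or as gained if it then passed. Depth limits MIR821, MIR817 and every precursor under 10 reads.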
